A study of Homo sapiens with 2 samples.

Results

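Tubulin expression was examined in SBC-3 cells, an adherent small-cell lung cancer (SCLC) line, after knockdown of HOTAIR, a long noncoding RNA transcribed from the HOXC locus. The family was defined as 10 of the 19061 genes named on the array, which were TUBA4A, TUBA1A, TUBA1B and TUBA1C of the α-tubulins and TUBB, TUBB2A, TUBB2B, TUBB3, TUBB4B and TUBB6 of the β-tubulins. Their probes were found by matching the RefSeq accession of each probe to the gene symbol, which gave 16 probes with 23 spots among 42402 probes and 58717 spots that are not controls. All 10 genes had a probe, and both arrays read all 16 probes well above background, so no member was lost to a filter on low signals. The family was picked out because TUBA4A was lower on its probes and TUBB3 was higher in this same comparison, so the values of these genes are given as a description.

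SBC-3 cells were transfected by Lipofectamine RNAiMAX with #1 siHOTAIR, which targets HOTAIR, or with the control siGFP, which targets green fluorescent protein. The RNA of each, carrying the dye Cy3, was read on 1 Agilent 1-colour array, so each condition is 1 array of 1 transfected culture of 1 cell line, and a single siRNA stands for the knockdown. The time from transfection to RNA extraction is not given for the arrays in the sources used here. As there are no replicates, no test and no P-value is given, and the siRNA cannot be told apart from the culture or the array. In bulk RNA, a change in the mix of cells cannot be told apart from a change within each cell.

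Microtubules are polymers of dimers, each made of an α- and a β-tubulin, and they carry transport, form the mitotic spindle and build the axoneme of cilia. Vertebrate genomes hold several genes for either subunit, called isotypes, whose products differ mainly in their carboxy-terminal tails and in the tissues that make them. TUBB3 (class III) and the class II genes TUBB2A and TUBB2B are abundant in neurons, TUBB3 is used as a marker of neuronal differentiation, and tubulins are the target of the taxanes and vinca alkaloids used against tumours. Cells also adjust tubulin mRNA to the pool of free dimers, through TTC5, which binds the nascent tubulin chain and leads to decay of its mRNA.

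The signal of each spot is the intensity processed by the scanner software. To form ratios, the 75th percentile of an array (650.3 with #1 siHOTAIR and 629.9 with siGFP) was subtracted on the log2 scale, and a probe with several spots took their mean. Log2 ratios are #1 siHOTAIR minus siGFP throughout. The SD given with a ratio was taken from probes with 10 spots at the same level of signal. It covers measurement error within an array, and neither the difference between cultures nor a spot read wrongly. The only HOTAIR probe with a matched name had a log2 ratio of -1.22 (SD 0.18), and the reference genes ACTB and GAPDH had -0.02 (SD 0.05) and 0.00 (SD 0.02) by their brightest probes. Of 12 markers of SCLC and epithelial cells, 7 were detected well above background by 1 or both arrays. The neuroendocrine markers INSM1 and SYP, the tuft-cell factor POU2F3 and the epithelial cadherin CDH1 were not well above background on either array. YAP1, a marker of SCLC without neuroendocrine features, had signals of 6522 and 6750, NEUROD1 had 213 and 372, and CHGA was at least 2.44-fold higher with #1 siHOTAIR. The part of these markers in the tubulin ratios was not tested.

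Across the family, 3 of the 16 probes were at least 2-fold lower and 1 was higher by 2-fold or more with #1 siHOTAIR. The 3 lower probes all belonged to TUBA4A and the higher probe to TUBB2A. Among the 21428 probes well above background on both arrays, 3.03% differed 2-fold, 1.54% downwards and 1.5% upwards. Among all 24117 probes compared, the share was 7.4%, with 4.1% lower and 3.3% higher. The family was chosen on this comparison, so nothing is read from its count against these shares. The median log2 ratio of the 16 probes was -0.08, beside 0.03 for all probes well above background on both arrays. All 7 α-tubulin probes were below 0 and 6 of the 9 β-tubulin probes were above 0, but apart from TUBA4A, TUBB2A, TUBB2B and TUBB3 the 9 remaining probes lay between -0.21 and 0.18. The direction of ratios that small depended on the scaling, since scaling to the spike-in RNA moved the median of all probes compared from 0.013 to 0.15 and put TUBA1A, TUBA1B, TUBB4B and A_24_P188071 of TUBA1C above 0.

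**Figure D1:**
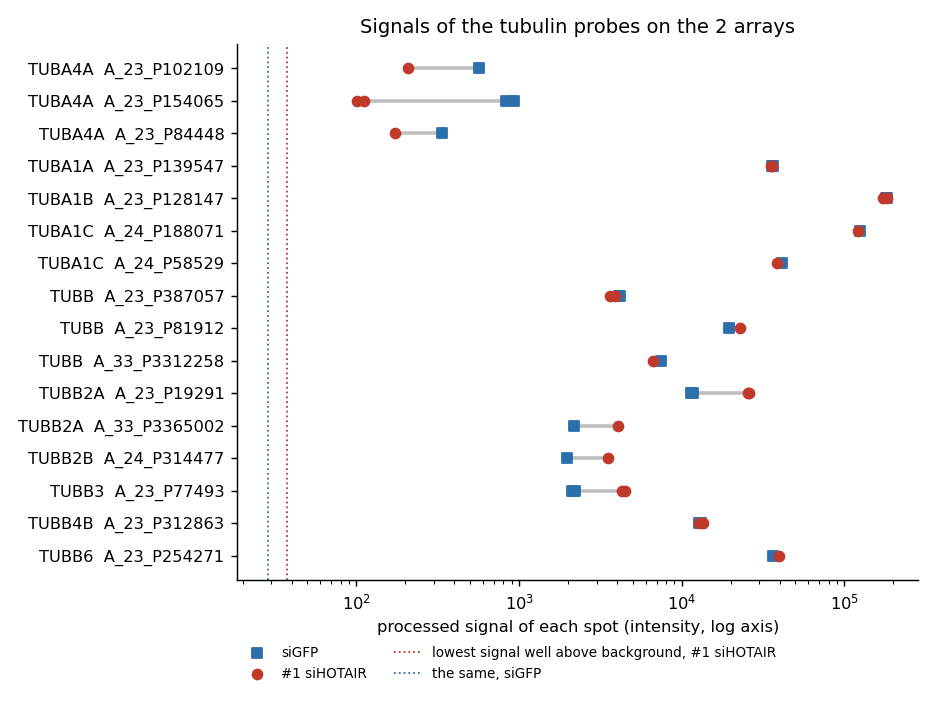
Processed signal (intensity, log axis) of each of the 23 spots of the 16 tubulin probes, with #1 siHOTAIR as red circles, siGFP as blue squares and grey bars joining the probe means. The siGFP spots of TUBA4A sit to the right of the #1 siHOTAIR spots on all 3 probes, the order is the opposite for TUBB2A, TUBB2B and TUBB3, and the spots of the other genes overlap or nearly so. The dotted lines at 37.3 and 28.6 mark the lowest signals well above background.

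The windows upstream of the 4 genes with the largest differences are shown to let their control regions be compared. Each holds the 250 bases before an annotated transcript start, from RefSeq on GRCh38.p14, read 5′ to 3′ on the strand of the gene. Capitals mark 4 motifs that were chosen after the windows were seen and searched on both strands, so that the reverse complement is marked as well. They are GGGCGG (a GC box), the CCAAT box, the letters TATAA (TATA-like) and the palindrome TGACGTCA (a cAMP response element). In TUBA4A a GC box directly follows the TATA-like letters. The TUBA4A window is chr2:219253919-219254168 on the minus strand, that of TUBB2A is chr6:3157545-3157794 on the minus strand, that of TUBB2B is chr6:3227654-3227903 on the minus strand, and that of TUBB3 is chr16:89923092-89923341 on the plus strand, the second of its 2 annotated starts. The window of the first start of TUBB3 holds none of these motifs, and which start the RNA on the arrays came from was not tested.
TUBA4A: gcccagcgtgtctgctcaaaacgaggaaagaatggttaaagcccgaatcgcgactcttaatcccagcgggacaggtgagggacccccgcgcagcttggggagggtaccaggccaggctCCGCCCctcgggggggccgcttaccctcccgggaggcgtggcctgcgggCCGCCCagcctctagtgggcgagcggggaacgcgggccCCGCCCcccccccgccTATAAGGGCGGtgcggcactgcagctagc
TUBB2A: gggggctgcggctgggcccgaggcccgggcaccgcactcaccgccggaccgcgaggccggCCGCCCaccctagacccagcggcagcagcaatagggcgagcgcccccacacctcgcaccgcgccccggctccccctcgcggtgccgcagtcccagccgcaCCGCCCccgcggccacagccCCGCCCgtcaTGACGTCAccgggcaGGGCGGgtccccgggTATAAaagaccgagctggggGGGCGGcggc
TUBB2B: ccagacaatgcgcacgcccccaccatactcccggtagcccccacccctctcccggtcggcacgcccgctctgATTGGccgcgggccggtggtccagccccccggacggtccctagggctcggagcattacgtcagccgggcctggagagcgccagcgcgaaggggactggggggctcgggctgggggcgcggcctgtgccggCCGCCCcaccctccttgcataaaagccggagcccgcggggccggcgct
TUBB3: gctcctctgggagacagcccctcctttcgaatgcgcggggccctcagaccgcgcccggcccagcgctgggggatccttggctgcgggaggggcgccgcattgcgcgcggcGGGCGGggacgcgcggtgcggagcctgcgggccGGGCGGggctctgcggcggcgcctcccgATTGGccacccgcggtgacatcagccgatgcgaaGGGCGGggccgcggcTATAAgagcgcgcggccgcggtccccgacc

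All 4 windows hold a GC box, with 4 in TUBA4A, 5 in TUBB2A, 1 in TUBB2B and 3 in TUBB3, as do 42.6% of the 35116 promoter windows of the table. TATAA was found in the windows of TUBA4A, TUBB2A and TUBB3 and in 18.9% of all windows, and CCAAT in those of TUBB2B and TUBB3 and in 32.0% of all. TGACGTCA was found in the TUBB2A window, beside 1.65% of all windows. A core of the RE1 element, the sequence bound by the neuronal repressor REST, was searched on both strands as well. It was found in 0 of the 15 windows of the 10 tubulin genes and in 0.0342% of all windows, which says only that these letters are not in these windows.

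TUBA4A, an α-tubulin known from muscle, brain and platelets that is made without the terminal tyrosine of most α-tubulins, was lower on all 3 of its probes. The probe A_23_P154065 had 2 spots, which read 101 and 112 with #1 siHOTAIR but 935 and 829 with siGFP. Neither pair of spots overlaps the other, and the spots of the same array differ far less than the arrays do. The mean gives a log2 ratio of -3.10 (SD 0.12), an 8.56-fold difference, and the spots taken apart gave -3.26 and -2.94. This was rank 3 from the lowest of the 21428 probes well above background on both arrays. As TUBA4A was picked out for its fall, the rank is a description and nothing more.

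The other TUBA4A probes had 1 spot each and were lower by less. The signal of A_23_P102109 was 207 against 565, a log2 ratio of -1.49 (SD 0.18) and a 2.82-fold difference. The signal of A_23_P84448 was 173 against 336, a log2 ratio of -1.01 (SD 0.18), which is 2.01-fold and so just past the 2-fold line. The 3 probes share the accession NM_006000 and the direction, and their ratios are spread over 2.09 on the log2 scale (SD 0.22), more than the measurement error. Taken one by one, they read 50.3% to 88.3% lower under the main settings. These readings are not bounds on the change of TUBA4A, and the position of each probe on the transcript was not used here. The 4 spots lay in rows 4, 192, 236 and 310 of the 384 rows of the array. Signals on the #1 siHOTAIR array were between 101 and 207, above the lowest signal called well above background there, 37.3. At such signals the treatment of the background matters, and without background correction the log2 ratios were -2.29, -1.20 and, for A_23_P84448, -0.69.

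TUBA1A, TUBA1B and TUBA1C, which lie side by side on chromosome 12 and supply α-tubulin in most dividing cells, differed little. TUBA1A, which is also needed for neuronal migration, had spots of 35656 and 35213 with #1 siHOTAIR against 36215 and 35645 with siGFP, a log2 ratio of -0.07 (SD 0.05). TUBA1B had 183172 and 171977 against 184108 and 181399, a log2 ratio of -0.09 (SD 0.05). TUBA1C was read by probes of 1 spot each, with 120896 against 124827 and 38768 against 41400, and log2 ratios of -0.09 (SD 0.07) and -0.14 (SD 0.07). None of the 4 probes differed by more than 1.1-fold. TUBA4A thus had lower ratios than the other α-tubulins, and over the 10 other settings tried its highest was -0.69 and their lowest -0.17.

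TUBB2A and TUBB2B, the class II β-tubulins, lie next to each other on chromosome 6 and both had higher signals with #1 siHOTAIR. The TUBB2A probe A_23_P19291 had spots of 25440 and 26086 with #1 siHOTAIR against 11424 and 11720. Its spots on the same array differ by far less than the arrays do, and both gave a log2 ratio of 1.11, with an SD of 0.05 for their mean, a 2.16-fold difference. It ranked 219 from the highest of the same 21428 probes. The second TUBB2A probe, A_33_P3365002 with 1 spot, had 4045 against 2161, a log2 ratio of 0.86 (SD 0.08). TUBB2B, which is mutated in malformations of the cerebral cortex, had 1 spot of 3507 against 1969, a log2 ratio of 0.79 (SD 0.08) or 1.72-fold. These genes are close paralogs, and whether the TUBB2B spot also reads TUBB2A RNA was not tested, as the probe sequences were not used here.

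TUBB3, the class III β-tubulin of neurons, had 1 probe, A_23_P77493, whose spots read 4488 and 4284 with #1 siHOTAIR but 2194 and 2109 with siGFP. The spots of either array do not overlap those of the other. The log2 ratio was 0.98 (SD 0.06), a 1.97-fold difference that falls just short of 2-fold, and the spots taken apart gave 0.99 and 0.98. As background, TUBB3 is a known target of REST, which belongs to a complex that HOTAIR binds. The part of REST in this ratio was not tested. TUBB3 ranked 348 from the highest of the 21428 probes, and it was among the genes by which the family was picked out. With scaling to the spike-in RNA it was 2.17-fold and with no scaling it was past 2-fold as well, so the count of higher tubulin probes became 2. The 2-fold line thus falls between TUBB2A, just inside on A_23_P19291, and TUBB3, just outside.

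All 4 spots of TUBB2A and TUBB2B lay in the first 3 eighths of the rows of the array, up to row 144, where changed spots were more frequent. Among spots well above background on both arrays, 1.9% in these rows and 1.28% in the other rows were at least 2-fold higher. Among the brighter spots, more than 2 log2 units above the 75th percentile, the shares were 0.389% and 0.361%. TUBB3 had a spot on either side, in rows 69 and 193, and the spot outside these rows gave 0.98. For TUBB2A and TUBB2B no spot remained outside these rows, and the part of the position in their ratios was not tested.

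**Figure D2:**
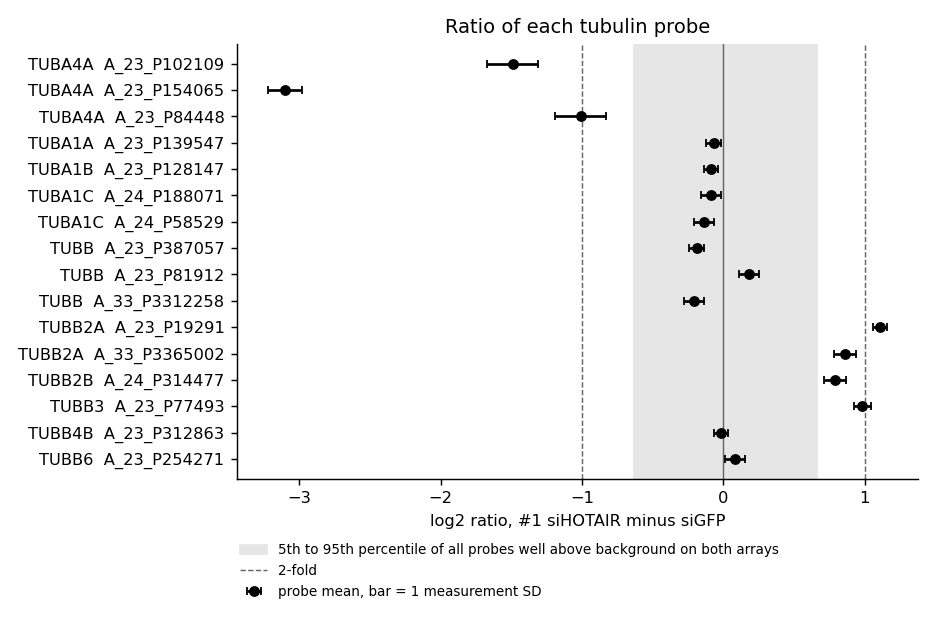
Log2 ratio (#1 siHOTAIR minus siGFP) of each of the 16 tubulin probes, with bars of 1 measurement SD and dashed lines at 2-fold. The 3 TUBA4A probes lie left of the grey band, which spans -0.63 to 0.66 and holds the 5th to 95th percentile of the 21428 probes that both arrays measured, the TUBB2A, TUBB2B and TUBB3 probes lie right of it, and the remaining 9 probes lie inside.

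The other β-tubulins had smaller differences. TUBB, the class I isotype and the main β-tubulin of many dividing cells, was read by 3 probes that disagreed in direction. A_23_P387057 had spots of 3630 and 3866 against 4169 and 4116, a log2 ratio of -0.19 (SD 0.05), and A_33_P3312258 had 6614 against 7432, a ratio of -0.21 (SD 0.07). A_23_P81912, with 1 spot in row 25, had 22686 against 19409, a ratio of 0.18 (SD 0.07), which is 0.39 on the log2 scale above A_33_P3312258 (SD 0.11), so no direction is given for TUBB. TUBB4B, a class IV isotype found in cilia and in most tissues, had spots of 12781 and 13609 against 12773 and 13086, and these overlapped, with a log2 ratio of -0.02 (SD 0.05). TUBB6, the class V isotype, had 1 spot of 39459 against 36239, a ratio of 0.08 (SD 0.07). The differences of TUBB4B and TUBB6 were within about 1 measurement SD.

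**Figure D3:**
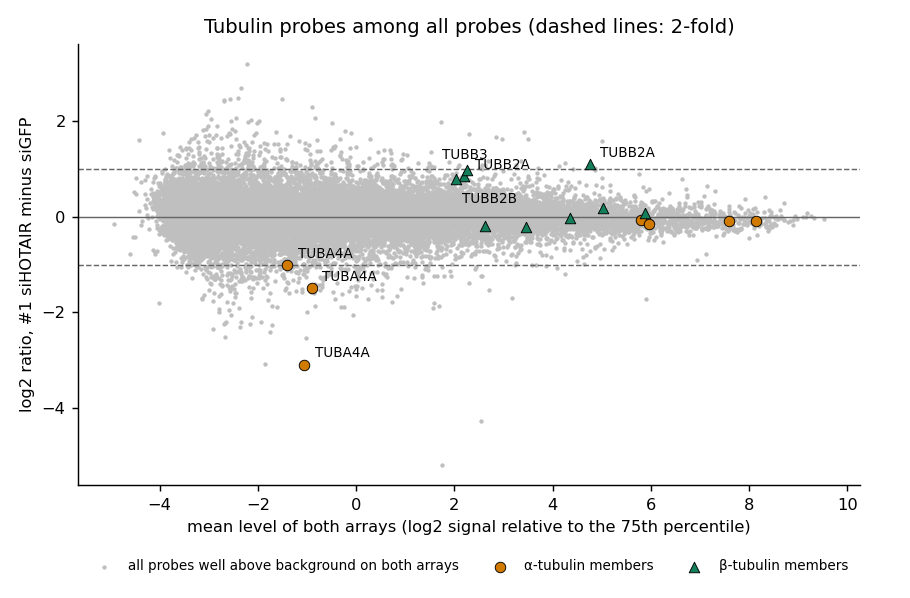
Log2 ratio (#1 siHOTAIR minus siGFP) against the mean level of both arrays (log2 signal relative to the 75th percentile) for the 21428 probes well above background on both arrays in grey, with α-tubulin probes as orange circles and β-tubulin probes as green triangles. Ratios scatter more at low levels. TUBA4A at -3.10 stands below nearly all probes of its level, and the TUBB2A probe at 1.11 lies above nearly all probes as bright. The family was chosen on this comparison, so these positions are a description only.

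Brightness sets how wide the ratios of all probes are, and this bears on the members differently. Among the 4113 probes with a mean level more than 2 log2 units above the 75th percentile, 0.875% differed 2-fold. The share was 0.511% higher and 0.365% lower. By that mean, both TUBB2A probes and the probes of TUBB2B and TUBB3 lie there. On the siGFP array alone, however, A_33_P3365002 of TUBB2A, TUBB2B and TUBB3 were at 1.78, 1.64 and 1.77. Those probes passed the line only through their higher #1 siHOTAIR signals, so nothing is read from them against these shares. TUBA4A lies lower, with mean levels below the 75th percentile on all 3 probes.

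Of 12 tubulin genes outside the family, 11 had a probe and 9 were well above background on 1 or both arrays, and none of these changed 2-fold, beside 6.15% of the 13014 named genes compared by their brightest probe (2.74% higher and 3.41% lower). TUBB1, the β-tubulin of platelets, and TUBAL3 were not well above background on either array. TUBA8, an α-tubulin of muscle and testis, had signals of 469 and 372, a log2 ratio of 0.29 (SD 0.08), and TUBA3C and TUBA3D had 0.00 (SD 0.23) and -0.06 (SD 0.11). TUBB8, the β-tubulin of the oocyte spindle, had 1 spot of 3151 against 2402, a ratio of 0.35 (SD 0.08). Whether that spot also reads RNA of other β-tubulins was not tested. TUBB4A, a class IV isotype of the brain, had mean signals of 51.5 and 32.9, with 1 of its 2 spots well above background, and a ratio of 0.60 (SD 0.39). The γ-tubulins TUBG1 and TUBG2, which nucleate microtubules, had -0.09 (SD 0.07) and -0.01 (SD 0.09), and TUBD1 and TUBE1, the δ- and ε-tubulins of centrioles, had -0.09 (SD 0.11) and -0.45 (SD 0.11). TUBE1 was therefore the lowest and TUBB4A the highest of these 9 genes.

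The genes that fold, modify and organize tubulin were read from 6 lists, each gene by its brightest probe. Together they held 101 genes, of which 87 were detected well above background by 1 or both arrays. Of these, 1 was at least 2-fold higher and 3 were at least 2-fold lower, or 4.6% beside 6.15% of all named genes compared, and their median log2 ratio was 0.04 beside 0.02. The lists share no gene with the 10 tubulins, and 2 of these 4 genes, SCAPER and FIGNL1, were measured above background on 1 array only.

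For folding and dimer assembly, all 23 genes of the CCT chaperonin, prefoldin and tubulin cofactor groups were well above background on both arrays, with a median of -0.07. TBCEL, a protein related to the cofactor TBCE that takes tubulin dimers apart, was 2-fold lower with signals of 213 and 447, a log2 ratio of -1.11 (SD 0.18). TBCD, a cofactor for β-tubulin, had -0.47 (SD 0.05) on its brightest probe and -0.45 (SD 0.03) on a probe with 10 spots, and its regulator ARL2 had -0.35 (SD 0.06). The CCT subunits CCT5 and TCP1 had 0.61 (SD 0.12) and 0.30 (SD 0.06), but a second TCP1 probe had -0.04 (SD 0.09), and TBCB had 0.18 (SD 0.05).

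For the decay of tubulin mRNA, TTC5, the sensor that binds nascent tubulin, had a log2 ratio of 0.08 (SD 0.09). CNOT11, CNOT1 and UPF1 had 0.24 (SD 0.03), -0.11 (SD 0.23) and 0.05 (SD 0.05). SCAPER, an adaptor between TTC5 and the CCR4-NOT deadenylase, had 1 spot that was well above background on the siGFP array alone, with 17.3 against 44.9, and was at least 1.24-fold lower. None of these 5 genes had a difference that both arrays measured and that reached 2-fold.

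Of 27 tubulin-modifying enzymes and their partners, 21 were compared, none changed 2-fold, and the median was 0.05. TPGS1, a subunit of the polyglutamylase complex, had a log2 ratio of 0.78 (SD 0.11), whereas TTLL1, the catalytic subunit of that complex, had -0.85 (SD 0.23). CEP41, a ciliary protein needed for glutamylation, had 4910 against 8032, a ratio of -0.76 (SD 0.07). VASH1, which removes the terminal tyrosine of α-tubulin, had 0.39 (SD 0.07), and TTLL5 and TTLL11, which add glutamates, had 0.27 (SD 0.23) and -0.33 (SD 0.23). The last values are near their measurement error.

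Of 13 genes of the γ-tubulin ring complex and its recruiters, 12 were compared, with a median of 0.15. MZT1, a small subunit of the complex, had 1526 against 3049, a log2 ratio of -1.04 (SD 0.08), and was the only gene of this list past 2-fold. TUBGCP6 had 467 against 247, a ratio of 0.87 (SD 0.11), TUBGCP4 had 0.52 (SD 0.11), and CKAP5, a microtubule polymerase, had 0.53 (SD 0.06). TUBGCP2, another subunit, had -0.13 (SD 0.09).

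Among microtubule-associated and plus-end proteins, 16 of 20 genes were compared, none changed 2-fold, and the median was 0.10. The neuronal proteins DCX and MAPT had -0.43 (SD 0.48) and -0.31 (SD 0.16), and MAP2 was not well above background on either array. MAP7 had -0.66 (SD 0.18), MAP1S 0.43 (SD 0.05) and CLIP2 0.29 (SD 0.23), and MAP1A, above background on the #1 siHOTAIR array alone, was at least 1.22-fold higher. Among destabilizing and severing proteins, 10 of 13 genes were compared, with a median of 0.17. STMN1, which sequesters tubulin dimers, had 21579 against 28110, a ratio of -0.43 (SD 0.05), and STMN3, its neuronal relative, had 0.61 (SD 0.10). The katanin genes KATNAL1 and KATNA1 had -0.39 (SD 0.11) and -0.22 (SD 0.03). FIGNL1, with 1 spot above background on the same array alone, counted as 2-fold higher by its own dim signal but was only at least 1.59-fold higher at its bound.

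**Figure D4:**
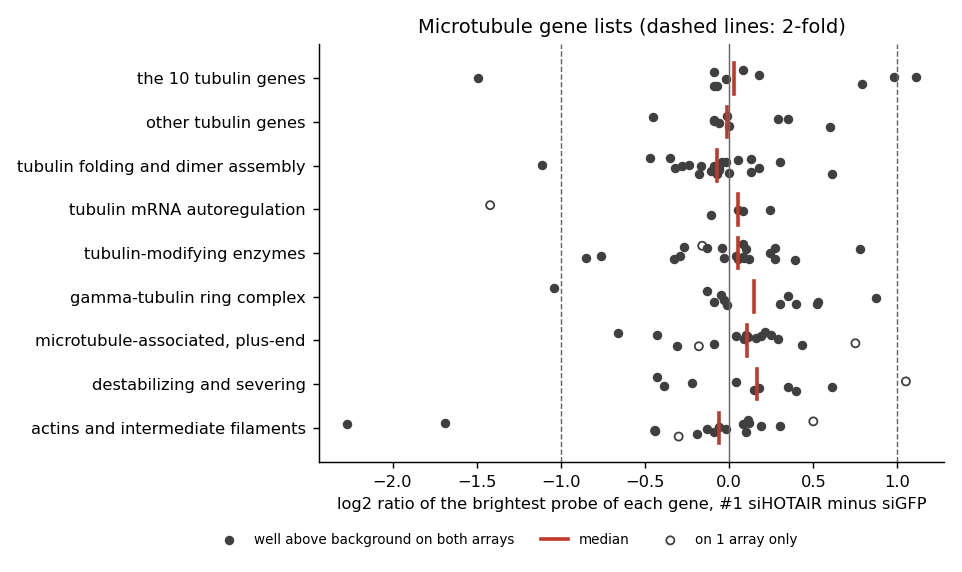
Log2 ratio (#1 siHOTAIR minus siGFP) of the brightest probe of each gene in the 10 tubulin genes, in the other tubulin genes, in the 6 microtubule lists and in actins with intermediate filaments, with filled points for genes well above background on both arrays, open points for 1 array only, red bars for medians and dashed lines at 2-fold. Medians lie between -0.07 and 0.17, and few genes lie past the dashed lines.

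Actins and intermediate filaments served as the other cytoskeletal families. Of 19 genes, 17 were compared, with a median of -0.06. In this list 2 genes were at least 2-fold lower, beside 3.41% of all named genes compared by their brightest probe. They were the smooth-muscle actins ACTG2 and ACTA2, with log2 ratios of -2.27 (SD 0.13) and -1.69 (SD 0.07). The largest positive ratios were those of KRT19, at least 1.33-fold higher, and the neurofilament genes NEFM and NEFH, with 0.30 (SD 0.12) and 0.19 (SD 0.06), although a dimmer NEFH probe had -0.38 (SD 0.23). INA, a neuronal intermediate filament, was above background on the siGFP array alone and at least 1.11-fold lower. TUBA4A, which was picked out for its fall, and the smooth-muscle actins were the lowest members of their families. Whether the genes of tubulin and actin differ as families was not tested.

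The genes beside the tubulins were read in the same way, with up to 2 measured neighbours on either side, which were chosen after the values had been seen. Of 28 neighbours that are not tubulins themselves, none was 2-fold higher and 1 was 2-fold lower, with a median log2 ratio of -0.04. Of all named genes compared by their brightest probe, 2.74% were higher and 3.41% lower, so nothing is read from this count. That gene was BPHL, a hydrolase gene next to TUBB2A, with 628 against 1229, a ratio of -1.02 (SD 0.07), opposite to TUBB2A. STK16, a kinase gene that overlaps TUBA4A, had 562 against 658, a ratio of -0.27 (SD 0.11). Of the 4 neighbours of TUBA4A, STK16, GLB1L (-0.27, SD 0.23) and the chaperone gene DNAJB2 (-0.78, SD 0.06) were below 0 and DNPEP was at 0.22, so all 4 were closer to 0 than any TUBA4A probe. MC1R and DEF8, on the 2 sides of TUBB3, had 0.62 (SD 0.08) and 0.60 (SD 0.07), and a second DEF8 probe had 0.66 (SD 0.07). The other neighbours of TUBB3, TCF25 and AFG3L1P, had 0.05 and -0.61, so its neighbours lay on both sides of 0.

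**Figure D5:**
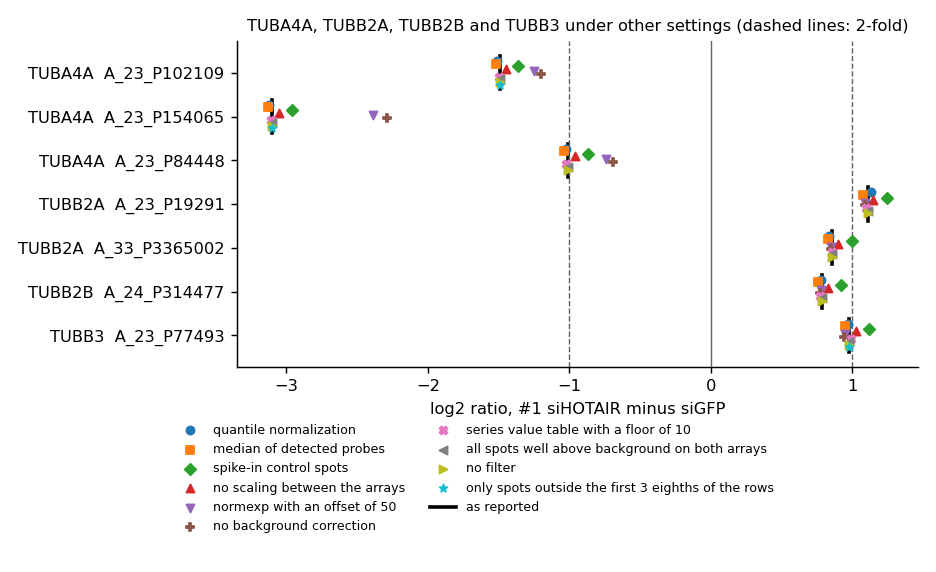
Log2 ratio (#1 siHOTAIR minus siGFP) of the probes of TUBA4A, TUBB2A, TUBB2B and TUBB3 under up to 10 other settings (coloured symbols) and as reported (black bars), with dashed lines at 2-fold. TUBA4A lies left of 0 and the β-tubulins right of 0 under all settings that gave a value, while A_23_P84448 of TUBA4A and the TUBB3 probe fall on either side of 2-fold.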

How the data were processed

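The arrays were SurePrint G3 Human 8x60K, 1 per condition, read by the authors with Agilent Feature Extraction 10.10.1.1, per the submitters' processing notes. The ratios used the processed intensity of the deposited scanner output, background-subtracted and detrended within each array and not normalized between arrays. The series value table holds the background-subtracted signal instead. Both arrays lay on the same slide and were scanned in the same run, per the file headers. The deposited flags (an other unit, 0 or 1) gave outlier and background calls. The study's methods name GeneSpring GX with a P-value threshold, which was not repeated here.

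Here log2 signals were scaled to the 75th percentile of spots that are not controls, outlier spots (393 and 375) were dropped on the array concerned, and none was saturated. Probes were compared where 1 or both arrays had 50% or more of their spots well above background. A probe above background on 1 array only is given as a bound, against the lowest signal well above background. Accessions were matched, without versions, to RefSeq names of GRCh38.p14, which named 58.5% of probes. Alternatives were other scalings, background corrections (on median pixel signals), filters, thresholds, the series value table and a restriction by array row. The number of arrays limits the precision. Calls were tested on simulated data of 21428 probes, where 200 of 200 probes changed 4-fold were recovered and 16 others were called. The simulation held only the measurement error of spots and changes far past the 2-fold line. It therefore cannot show how reliable calls near that line are, nor how often cultures differ without the siRNA. Python 3.11.15, limma 3.58.1 and R 4.3.3 were used.

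The tubulin members and all gene lists were chosen with earlier results of these data known. Named were every member, the other tubulins above background, and the up to 3 highest and 3 lowest genes of each list. Values of some list genes are not reported here.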

Additional observations from a re-analysis of the deposited data

How the results depend on the processing

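Of 153 ratios of the tubulin probes under 10 other settings, 131 moved by less than their measurement SD and 22 by more, and no ratio past 2-fold changed sign. The 131 include ratios that could not move. Dropping the filter, or asking for all spots well above background, left each of the 16 ratios as it was, because every member passes both. The row restriction could move only probes with spots on both sides of its line. The spike-in scaling moved 14 of the 16 ratios. The count of probes at least 2-fold higher, 1 as reported, became 2 under the spike-in scaling or without any scaling, 4 at a threshold of 1.5-fold, 0 at 3-fold and 0 among spots outside the first 3 eighths of the rows, where 9 probes remained. The count of lower probes, 3 as reported, was 1 with the brightest probe of each gene and 1 at 3-fold, and 2 with the spike-in, no scaling, normexp, no background correction or the row restriction. The median log2 ratio of -0.08 was 0.01 with quantile normalization, 0.06 with the spike-in and 0.03 with the brightest probes, so its sign is not settled. Over all probes compared, 7.4% changed 2-fold as reported, against 1.72% with normexp and 1.36% without background correction. No paired analysis was possible because each condition has 1 array. The 3 TUBA4A probes, with spots of 101 to 207 on the #1 siHOTAIR array, were the members whose ratios moved by more than their measurement SD with normexp or without background correction.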
